A study of Mus musculus with 8 samples.

Results

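The genes described here encode the proteins of the cytosolic ribosome. They were chosen by name from the mm9 gene annotation as protein-coding genes whose symbol starts with Rpl or Rps followed directly by a digit, without the Rps6k kinase genes, symbols with -ps and copies made of a single exon. The rule found 79 genes among 22350 protein-coding genes, spread over 19 chromosomes, with 13 of them on chromosome 7. Of these, 42 carry a canonical name of the large (60S) subunit, 30 carry a canonical name of the small (40S) subunit, and 7 carry other names (Rpl3l, Rpl7l1, Rpl22l1, Rpl36al, Rpl39l, Rps27l and Rps19bp1). Rps19bp1 encodes a protein that binds RPS19 and is not itself a ribosomal subunit, although its symbol meets the rule.

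All libraries came from D1 cells, a long-term splenic dendritic cell (DC) line of C57BL/6 origin. H3K4me3 was measured by ChIP-seq in non-treated (NT) cells, in cells given 10 µg/ml curdlan for 2 h, and in cells given curdlan with FK506 for 2 h. Curdlan is a β-glucan that engages dectin-1, and FK506 is a calcineurin inhibitor that keeps NFAT out of the nucleus. Its dose in these libraries is not given in the sources used here. NFATc2 was measured in D1 cells that stably carried a lentiviral NFATc2-V5 transgene with an IRES-GFP reporter and had been sorted for low GFP, after 30 min of 10 µg/ml curdlan, with an anti-V5 antibody, so that the protein recovered is the tagged copy beside the cells' own NFATc2.

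Each condition had 1 ChIP and 1 input library, so every difference between conditions below compares 2 libraries and has no replicate check. The ChIP libraries held 14377535 to 21289349 tags, and the curdlan library was the deepest. Between 51.3% and 57.9% of H3K4me3 tags lay in peaks, against 5.6% for NFATc2. The ratio of ChIP to input tags was 1.38 in NT, 2.29 in curdlan and 1.96 in curdlan+FK506. The part of this ratio in the fold enrichments below was not tested. Promoter H3K4me3 peaks were present at 7 of the 7 DC and myeloid marker genes found in the annotation in every list (Itgax, Cd74, H2-Ab1, Irf8, Ptprc, Cd86 and Clec7a), and at 0 of 8 markers of other cell types.

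A ribosomal subunit is assembled from ribosomal RNA and a near-equal number of each of its proteins, so the genes for these proteins are transcribed at high and balanced levels in nearly all growing cells and often serve as a housekeeping reference. Most are short genes with a CpG-rich promoter, and their mRNAs start with a run of pyrimidines, the 5′ terminal oligopyrimidine (TOP) tract, through which growth signals control translation. Many host small nucleolar RNAs (snoRNAs), which guide modification of ribosomal RNA, in their introns. H3K4me3 is the trimethyl mark of histone H3 found around the start of active and poised genes.

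The starts of the genes are shown first, because they define the promoters at which both marks were measured. Each line gives the 15 bases before the annotated transcription start site (TSS) and the 15 bases from it, 5′ to 3′ on the gene's strand in mm9, with the longest run of a C followed by at least 4 pyrimidines in capitals. The first 4 were picked for long runs, and the last 2, Rps27a and Rps6, are from the set of named subunit genes.
Rps2 (chr17:24857040-24857069, plus strand): ccgcggcgCCTCCCTCTTCTTCTTCTTCgg
Rpl34 (chr3:130433241-130433270, minus strand): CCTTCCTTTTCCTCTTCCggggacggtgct
Rpl32 (chr6:115758751-115758780, minus strand): gcgccgccgccgCCTCTTCCTTCTTCCTCg
Rps24 (chr14:25309925-25309954, plus strand): cggcagtgagcggtCCTCTTTTCCTCCTCT
Rps27a (chr11:29448095-29448124, minus strand): acaagCCCCCTTTaaaggaaagcctctctt
Rps6 (chr4:86503302-86503331, minus strand): gccggctgttctcgcgagaacttagagcgc
A run of this kind lay within 20 bases of the start in 48 of the 79 genes (60.8%), compared with 46.6% of all protein-coding genes. Annotated starts can be many bases away from the position used in a cell, and the Rps6 window, with no run, shows only that these letters are absent from this window.

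Across the 250 bases before the start and the 50 bases from it, CCGGAA, the core of ETS family sites, was found on either strand in 35 of the 79 genes (44.3%), against 17.8% of all protein-coding genes and 29.8% of those with a promoter H3K4me3 peak in NT. TATAAA was found in 9 genes (11.4%), against 13.4% and 6.68%. GGAAAA, the core of NFAT sites, was found in 17 genes (21.5%), against 23.3% and 21.0%. The median number of CpG per 100 bases was 6.67 in the ribosomal protein genes, 4.0 in all protein-coding genes and 7.0 in those with a peak. The share with GGAAAA was thus close to that of all promoters, whereas the share with CCGGAA was above both references.

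H3K4me3 was present at nearly every ribosomal protein promoter under each condition. A peak within 1 kb of an annotated TSS was found at 77 of 79 genes (97.5%, 95% Wilson interval 91.2 to 99.3) in NT, in curdlan and in curdlan+FK506. The background was 49.0% of all protein-coding genes in NT, 48.9% in curdlan and 48.7% in curdlan+FK506. The 2 genes without a peak were the same in the 3 lists, Rpl3l (chr17:24864774-24873094) and Rpl39l (chr16:10170319-10175004), which encode paralogs of RPL3 and RPL39 known for expression restricted to striated muscle and to testis. All 72 genes with a canonical name had a peak in each list. Among 153 ribosomal protein pseudogenes and single-exon copies that the rule leaves out, 6 (3.92%) had a peak within 1 kb in each list, and only 2 of the 128 with no other protein-coding TSS within 5 kb did.

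The level of the mark is given as the tags in the promoter peaks scaled to a library of 1000000 tags (RPM). The median over the 77 genes was 61.8 in NT, 63.3 in curdlan and 63.5 in curdlan+FK506, and the medians over all genes with a peak were 46.2, 42.7 and 41.4. In NT, the quartiles of the ribosomal protein genes were 50.8 and 73.6 RPM. That median lay at percentile 67.7 of all genes with a peak in NT, and 66 of the 77 genes were above the median of all genes. Large and small subunit genes had similar medians in NT, at 62.0 and 60.9 RPM. The mark was therefore above the typical promoter but well below the strongest ones, since single genes elsewhere in the genome reached 584 RPM in NT.

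**Figure D1:**
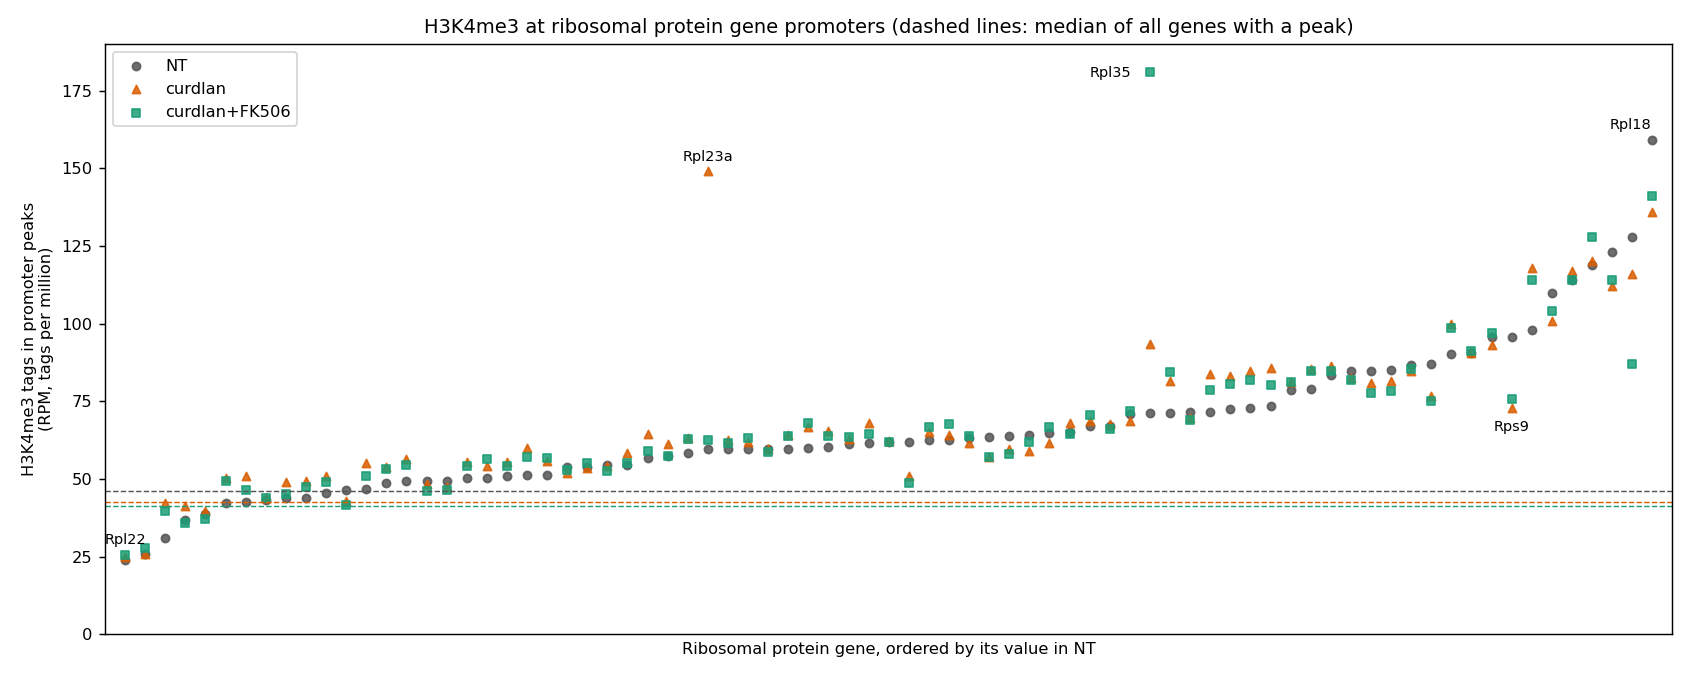
H3K4me3 level in RPM in the promoter peaks of 77 ribosomal protein genes (vertical axis, linear), ordered by their value in NT, with 1 point per gene and library, 5 genes named and dashed lines for the median of all genes with a peak in each list. Most genes keep their place in the 3 lists, and Rpl23a in curdlan (149) and Rpl35 in curdlan+FK506 (181) stand apart from their values in the other lists.

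The genes differed among themselves more than between conditions. Rpl18 (chr7:52970827-52976205) had the most tags in NT, with 159 RPM in NT, 136 in curdlan and 141 in curdlan+FK506. Next came Rpl12 with 128 and Rpl13a with 123 RPM in NT. Rpl22 (chr4:151699851-151708180) was at the other end, with 23.8, 25 and 25.6 RPM in the 3 lists. Rps19bp1 had 26.0, 25.8 and 27.9, and Rpl36 had 31.1, 42.4 and 39.7 RPM. RPL22 is dispensable for ribosome function in most cells, and RPL13A also takes part in translational silencing of inflammatory mRNAs. Between NT and curdlan the order of the 77 genes was largely kept (Spearman's rho = 0.91 across genes, which share the 2 libraries and are not independent replicates), and the highest of the 3 values was at the median gene 1.09 times the lowest.

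Some subunits have known roles outside the ribosome or in disease, and the levels of their genes differed little between the lists. Rpl5 and Rpl11, whose products bind MDM2 when ribosome assembly fails, had 65 and 38.7 RPM in NT, then 67.9 and 39.6 in curdlan and 64.6 and 37.2 in curdlan+FK506. Rps3, also described as a partner of NF-κB, had 70.9, 68.6 and 72.0 RPM in NT, curdlan and curdlan+FK506. Rps6, the phosphorylated target of S6 kinases, had 63.1, 61.5 and 63.8. All 3 values of each of these 4 genes stayed within a narrow range.
Rps19, the gene most often mutated in Diamond-Blackfan anemia, had 61.8, 62.3 and 61.8 RPM. Rps27a, which encodes ubiquitin fused to the subunit, had 90.6, 90.6 and 91.1, and the X-linked Rpl10 had 57.3, 61.2 and 57.4. None of these genes differed by as much as 1.5-fold between any pair of lists.

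Peaks at neighbouring genes can run together, and 17 of the 77 genes had an NT peak that also lay within 1 kb of a TSS of another protein-coding gene. These 17 had a median of 86.7 RPM and a median length of 4565 bp in NT, compared with 59.7 RPM and 3444 bp for the other 60. Rpl18 shared its peak with Sphk2, and its summit lay 3042 bp downstream of its own start. For Rpl36a (chrX:131120193-131122601), whose peak was shared with Btk, the kinase of B cell receptor signalling, the summit lay 3096 bp upstream. The levels of these 2 genes are thus those of a shared region. Rpl11, Rpl13a, Rpl24 and Rps18 had 2 separate promoter peaks, which were summed. At Rpl11 (chr4:135584180-135609343) the annotated starts spanned 24630 bp, and the 2 peaks lay at opposite ends of this span.

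The peaks were broad relative to the genes. Their median length was 3598 bp in NT, against 3095 bp over all genes with a peak, while the median ribosomal protein gene was only 3243 bp long, against 22304 bp for all genes with an NT peak. Peaks covered a median of 75.3% of the gene in NT (8.83% over all genes), and 15 genes lay wholly inside their peaks. Rpl12 (7873 bp), Rpl36a (7345 bp) and Rpl3 (6695 bp) had the longest peaks in NT. The shortest were those of Rpl26 (2208 bp), Rpl36 (2324 bp) and Rps15 (2459 bp). The summit lay downstream of the main TSS in 67 of the 77 genes in NT, and in 75.8% of all genes with a peak. Its median position was 467 bp from the start, against 303 bp over all genes. Per kilobase of peak, the ribosomal protein genes had a median of 17.2 RPM in NT, and all genes 14.6.

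The 28 genes with at least 1 annotated snoRNA on the same strand within the gene held 54 snoRNAs in all, with 5 of them in Rpl4. Their median was 68.0 RPM and 3783 bp in NT, compared with 59.8 RPM and 3454 bp for the 49 other genes. Both groups had near-equal changes with curdlan, with centred medians of 0.17 and 0.19 on the log2 scale defined next.

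After 2 h of curdlan the mark at most ribosomal protein genes was slightly higher relative to the rest of the genome. Change was measured as the log2 ratio of RPM, centred on the median of all genes with a peak in both lists (-0.13 for curdlan over NT). The median over the 77 genes was 0.17, a ratio of 1.13, with quartiles of 0.09 and 0.28. Values above 0 were found at 70 of the 77 genes, against a background of 50% of all genes, which the centring fixes. The quartiles of all genes were -0.14 and 0.15. Without centring, the median was 0.05 and 50 genes were above 0. A ratio of 1.5 or more upward was seen at 1 gene, Rpl23a, against a background of 3.63%, and downward at 0 genes, against 1.23%.

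Ribosomal genes outside the rule and other TOP mRNA genes gave values of the same sign, and the mitochondrial ribosome did not. Centred medians for curdlan over NT were 0.28 over the 6 subunit genes with other symbols, such as Rplp0 and Rpsa, and 0.22 over 15 other genes with TOP mRNAs, such as Eef1a1, Npm1 and Pabpc1. Across 76 mitochondrial ribosomal protein genes the median was -0.01, with 36 above 0. Canonical large and small subunit genes had medians of 0.19 and 0.16. Among the other protein-coding genes, 1287 had both an NT level of 50.8 to 73.6 RPM and an NT length of 3095 to 4249 bp, the quartiles of the ribosomal protein genes. Their median change was 0.0, and 50.6% were above 0.

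**Figure D2:**
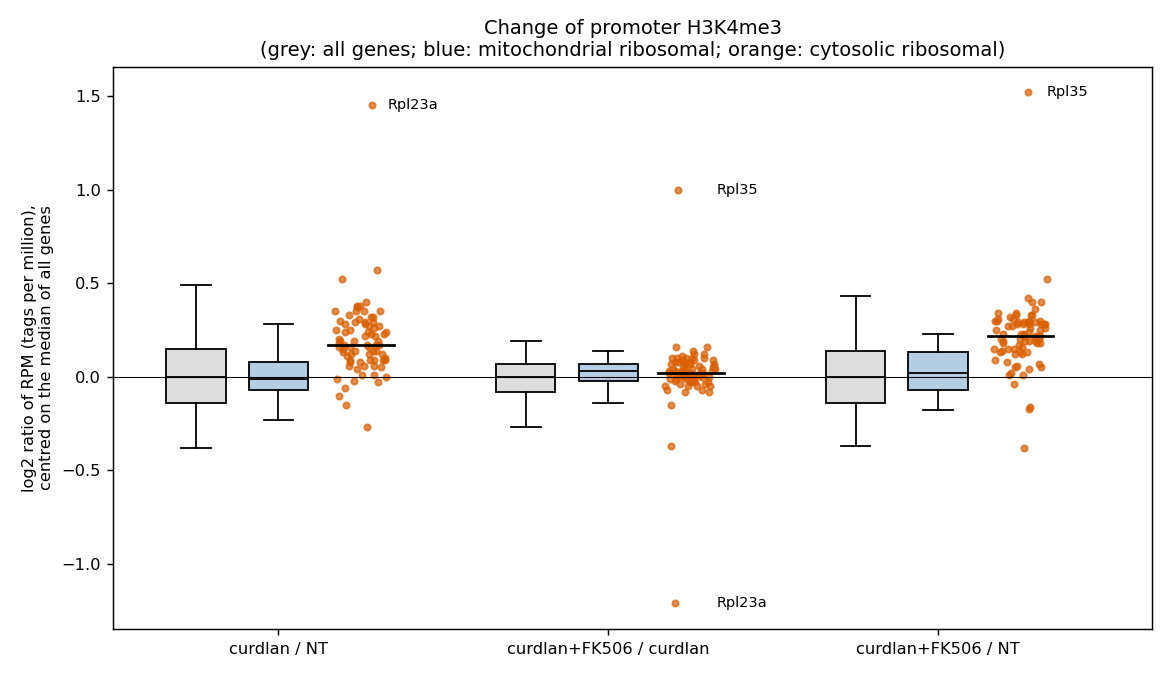
Centred log2 ratios of promoter H3K4me3 RPM in the 3 comparisons (0 is the median of all genes). Grey boxes show all genes with a peak in both lists and blue boxes the 76 mitochondrial ribosomal protein genes (box: quartiles, line: median, whiskers: percentiles 5 and 95), and each orange point is 1 of the 77 cytosolic ribosomal protein genes with a black line at their median (0.17, 0.02 and 0.22).

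The peaks were also longer, mainly on the downstream side of the start. The median peak length was 3598 bp in NT, 4062 bp in curdlan and 3985 bp in curdlan+FK506. With curdlan the peaks were longer at 69 of the 77 genes (89.6%), against 64.5% of all genes, and the median difference was 323 bp against 106 bp. The downstream edge reached farther from the start at 73 of the 77 genes (63.6% of all genes), by a median of 281 bp, whereas the upstream edge did so at 41 of the 77 (58.1% of all genes), by a median of 24 bp. Rps24 reached 2485 bp downstream in NT, 4513 bp in curdlan and 3294 bp in curdlan+FK506. Rpl24 reached 1841, 3469 and 3432 bp, and Rpl27a reached 2359, 3812 and 3412 bp. These genes had the largest differences between NT and curdlan after Rpl23a, which is described separately.

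The median lengths followed the order of the library depths, which were 16662316 tags in NT, 19468498 in curdlan+FK506 and 21289349 in curdlan. The part of depth in the added length was not tested. Per kilobase of peak, the centred median for curdlan over NT was 0.08 with 47 of the 77 genes above 0. Of the 1287 genes with like level and length in NT, 61.5% had a longer peak with curdlan, with a median difference of 93 bp.

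**Figure D3:**
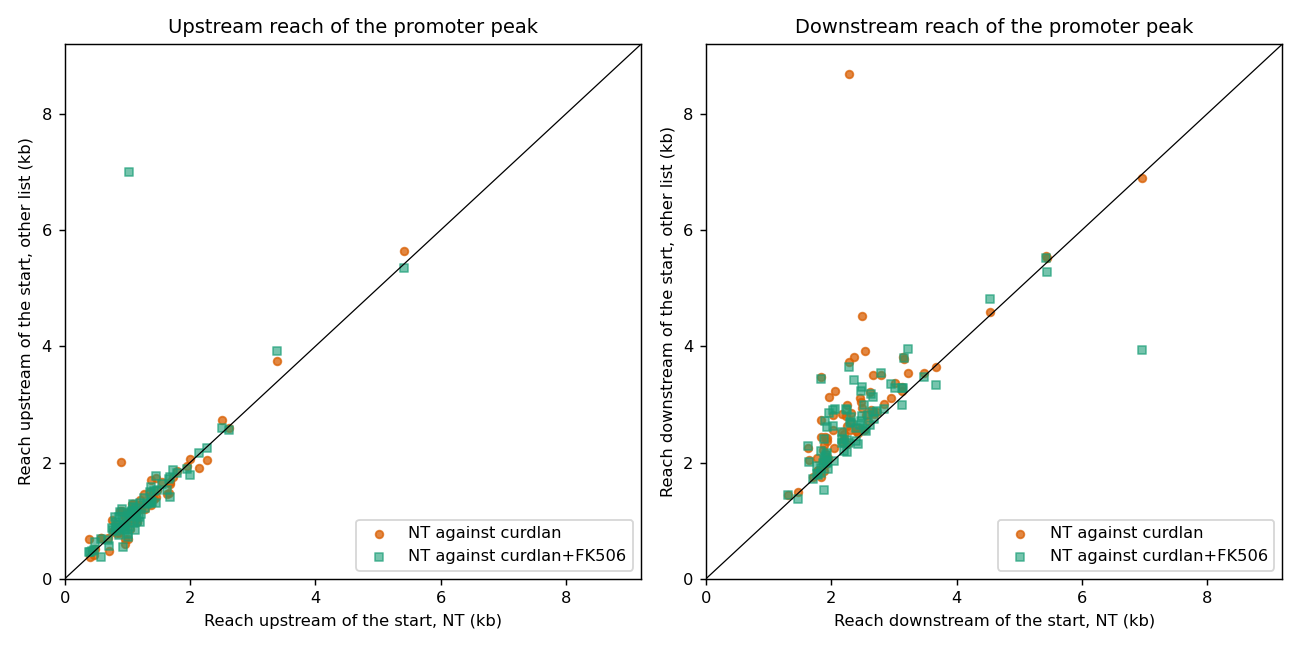
Distance in kb that the promoter peak reached upstream (left) and downstream (right) of the main TSS in NT (horizontal axis) and in the other lists (vertical axis), with 1 point per ribosomal protein gene and other list and a line of equal reach. Downstream, 73 of the 77 genes are above the line in curdlan, and upstream the points lie on both sides of the line.

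The genes with the highest and lowest ratios for curdlan over NT were checked one by one. Rpl36 (chr17:56752818-56753666) had 519 tags in NT, 902 in curdlan and 772 in curdlan+FK506. Its centred log2 ratio was 0.57 (exact 95% counting interval 0.41 to 0.73), and its peak length was 2324, 2699 and 2460 bp, so that tags per kilobase were also higher (0.41). Rps9 (chr7:3655595-3658503) had the lowest ratio, -0.27 (counting interval -0.37 to -0.17), from 95.8 RPM in NT to 72.9 in curdlan and 75.6 in curdlan+FK506, at nearly the same length (4524, 4578 and 4535 bp). Its low value in curdlan was thus also found in the library with FK506.
Rpl24, with 97.9, 118 and 114 RPM, had a ratio of 0.40 and stayed at 0.40 for curdlan+FK506 over NT. At the low end Rps21 followed with -0.15, from 61.8 RPM in NT to 51.0 and 48.8. Rpl18 had -0.10 and Rpl36a -0.06, and both share their peaks with a neighbour. Counting intervals cover the sampling of tags only, and the number of libraries gives no spread between cultures.

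Rpl23a, Rpl35 and Rpl12 had the most extreme ratios in at least 1 comparison, and in each case peaks had been joined or split. At Rpl23a (chr11:77994434-77997086) NT had a promoter peak of 991 tags and a separate peak of 1118 tags at the neighbouring genes Tlcd1 and Nek8. In curdlan a single peak of 9865 bp held 3178 tags, and in curdlan+FK506 there were again 2 peaks, of 1219 and 1352 tags. Between curdlan and NT the centred ratio was 1.45, and between curdlan+FK506 and curdlan -1.21, but -0.05 and 0.26 per kilobase of peak. With the tags of all peaks in the span summed in each list, it was 0.37 and -0.13.
Rpl35 (chr2:38857100-38861144) had neighbouring peaks 30 bp apart in NT, which formed 1 peak of 10948 bp and 3525 tags in curdlan+FK506. Its ratio for curdlan+FK506 over curdlan was 1.00 for the promoter peak and 0.11 for the whole span. In NT and in curdlan the 2 peaks were separate, and the promoter peak held 1186 and 1986 tags. For curdlan over NT the ratio of Rpl35 was thus 0.52 without joining (counting interval 0.41 to 0.62). It was 0.46 per kilobase of peak and 0.14 for the whole span. Rpl12 (chr2:32817079-32820016) had 1 peak of 2138 tags in NT and 2464 in curdlan, which was split into 1693 and 626 tags in curdlan+FK506. The ratio of -0.37 for curdlan+FK506 over curdlan became 0.09 for the whole span. Over these whole spans, 0 of the 77 genes passed a ratio of 1.5 in either direction in any of the 3 comparisons. Few of all genes did so either. The backgrounds upward and downward were 3.28% and 1.07% for curdlan over NT, and 0.223% and 0.698% for curdlan+FK506 over curdlan. For curdlan+FK506 over NT they were 2.64% and 1.02%. The median of the 77 genes for curdlan over NT was still 0.17 over the spans.

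**Figure D4:**
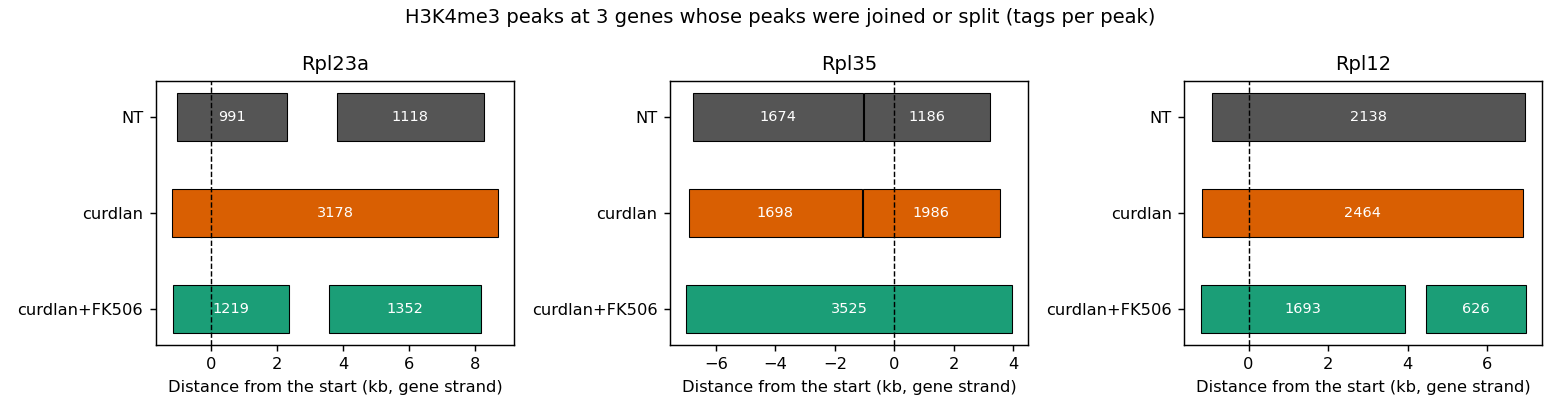
H3K4me3 peaks at Rpl23a, Rpl35 and Rpl12 in the 3 lists, drawn by distance in kb from the main TSS on the gene's strand (dashed line at the start), with the tags of each peak written in its bar. The curdlan peak of Rpl23a spans both NT peaks, the curdlan+FK506 peak of Rpl35 spans both NT peaks, and the Rpl12 peak is in 2 pieces in curdlan+FK506.

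The curdlan+FK506 and curdlan libraries differed little over the group. For curdlan+FK506 over curdlan the centred median was 0.02, with quartiles of -0.01 and 0.07, and 53 of the 77 genes were above 0 (50% of all genes). Without centring the median was -0.02 and 27 genes were above 0, so no direction can be given. Past a ratio of 1.5 there was 1 gene upward, Rpl35 (background 0.389%), and 1 downward, Rpl23a (background 1.14%), both with the joined peaks described above. The next highest were Rps3a and Rps19bp1, both at 0.16, and Rpl3 at 0.14, and the next lowest after Rpl12 was Rpl22l1 at -0.15, ahead of Rpl13 and Rps4x, both at -0.08. Peaks were longer than in curdlan at 25 of the 77 genes (32.5%), against 38.9% of all genes.

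Set against NT, the library with curdlan+FK506 resembled the one with curdlan alone. The centred median was 0.22, with 73 of the 77 genes above 0 (50% of all genes), and 0.05 without centring. A ratio of 1.5 or more was seen upward at 1 gene, Rpl35 (background 2.87%), and downward at 0 genes (background 1.23%). Apart from Rpl35, the highest values were those of Rpl36 at 0.52, Rps15a at 0.42 and Rpl24 at 0.40. The lowest were Rpl12 at -0.38, Rps9 at -0.17, Rps21 at -0.16 and Rpl36a at -0.04. Curdlan over NT and curdlan+FK506 over NT share the NT library, so their like medians are not independent of each other.

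The fold enrichment of the peak caller, which compares the summit with the input, gave a wider spread. Median fold enrichment over the ribosomal protein genes was 48.9 in NT, 86.5 in curdlan and 74.2 in curdlan+FK506, and 43.8, 72.7 and 60 over all genes. The order of the lists was the same as that of the ChIP to input ratios, whose part was not tested. On this scale 14 of the 77 genes were past 1.5-fold upward for curdlan over NT, against 14% of all genes. Downward there were 3 of the 77, a lower share than the 14.3% of all genes. The centred median was 0.17, the same as for tags, but only 47 of the 77 genes were above 0.

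NFATc2 summits lay near about the same share of ribosomal protein genes as of all genes. A summit lay within 20 kb of an annotated TSS at 16 of the 79 genes (20.3%, 95% Wilson interval 12.9 to 30.4), against 24.1% of all protein-coding genes and 37.1% of those with a promoter H3K4me3 peak in NT. Within 5 kb there were 9 genes (11.4%), against 11.4% and 19.8%, and within 1 kb there were 6 (7.59%), against 5.29% and 9.91%. The 79 genes are the whole set named by the rule and were read in 1 NFATc2 library, so the Wilson interval is no test against either reference. Of the 16 nearest summits, 1 for each gene, 8 lay upstream and 8 downstream of the nearest start, and 13 had the ribosomal protein gene as their nearest protein-coding gene. The other summits included one by Rpl23a, nearest to Tlcd1, and one by Rpl23, nearest to Lasp1.

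**Figure D5:**
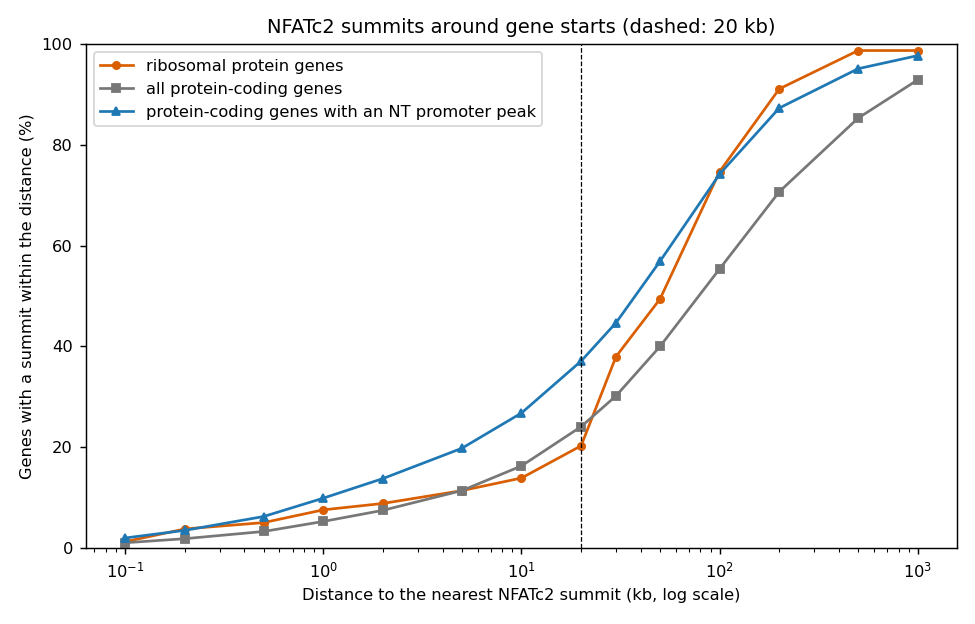
Share of genes (%) with an NFATc2 summit within the distance on the horizontal axis (kb, log scale) of an annotated TSS, for 79 ribosomal protein genes, all protein-coding genes and those with an NT promoter peak. At 20 kb (dashed line) the ribosomal protein genes are at 20.3%, below all genes (24.1%) and genes with a peak (37.1%). At 30 kb they are at 38.0%, above all genes (30.2%) and below genes with a peak (44.7%).

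The nearest summits of the 16 genes had 22 to 157 tags and a median of 43.0, and the median over all NFATc2 peaks was 63. Rps13 (chr7:123475021-123477704) had the peak with the smallest p-value among the 6 within 1 kb, with 73 tags, 20.4 times the input background and a MACS p-value of 8.0e-19, and its summit lay in an intron 903 bp downstream of the start. Rps29 had 69 tags 569 bp upstream (p-value 2.3e-12), and Rps16 had 52 tags 196 bp upstream (p-value 5.3e-06). Fewer tags were found at Rpl36a, with 36 (60 bp downstream), and at Rpl11, with 29 (156 bp upstream). At Rpl11 that distance is to an alternative start, and the summit lay 24439 bp downstream of the main one.
From 1 to 5 kb, Rps7 had 45 tags at 1594 bp and Rpl34 had 32 tags at 2436 bp downstream, both in introns. The summit by Rpl23a, 4505 bp downstream, had the most tags of these 16 (157) and lay in an exon of Tlcd1, 414 bp from a TSS of that gene. Rpl22l1 was the farthest from any summit, at 1128245 bp.

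The sequences by these summits are shown because, of the nearest NFATc2 summits within 5 kb of a ribosomal protein gene, these have the motif close by. Those of Rps16 and Rps29 lie within 1 kb of the start, those of Rps7 and Rpl34 lie in introns farther in, and that of Rpl23a lies by Tlcd1. Each of the next 5 lines shows the GGAAAA nearest to the summit and within 100 bases of it, in capitals, on the strand where it reads GGAAAA (mm9). In the order of the lines, the motif lay at 3, 44, -27, -26 and 16 bases from the summit, with negative values at lower coordinates.
Rps7 (chr12:29319212-29319241, plus strand): gatttcctgggaGGAAAAaatgtctgtgtc
Rps16 (chr7:29135504-29135533, plus strand): gaccaaggctgcGGAAAAgcaatggaaaaa
Rps29 (chr12:70260700-70260729, minus strand): gtagtgagtaaaGGAAAAaaaaaatcacgt
Rpl34 (chr3:130430775-130430804, minus strand): aatgatgcaaacGGAAAAgatttccaggct
Rpl23a (chr11:77990628-77990657, plus strand): agggagggaccgGGAAAAccccagttggac
These were 5 of the 9 nearest summits within 5 kb, and 45.6% of all 9438 NFATc2 summits had GGAAAA within the same distance. At the other 4, such as Rpl11, Rpl36a and Rps13, the 6 letters were not in the window, and the shorter GGAAA was found at all 9 summits and at 86.7% of all summits. The wider context is given for Rps16, whose summit lay between genes and close to the start. Its peak had the largest MACS p-value (5.3e-06) of the nearest summits within 20 kb. Its motif was also the farthest from the summit among the 5 shown. Every GGAAAA on either strand is in capitals.
Rps16, from -315 to -76 relative to the start (chr7:29135356-29135595, plus strand): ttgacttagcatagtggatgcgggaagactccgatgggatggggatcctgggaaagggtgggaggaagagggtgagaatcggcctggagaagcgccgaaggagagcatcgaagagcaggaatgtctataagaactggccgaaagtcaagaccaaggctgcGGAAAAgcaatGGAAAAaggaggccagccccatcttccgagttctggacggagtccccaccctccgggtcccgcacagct
The motif occurs at 2 places, 5 bases apart.

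H3K4me3 at genes near an NFATc2 summit changed by about the same amount as at the others. The 16 genes with a summit within 20 kb had a centred median of 0.21 for curdlan over NT, with 15 above 0, and the 61 without had a median of 0.17, with 54 above 0. For curdlan+FK506 over curdlan the median was 0.02 in both groups. The 6 genes with a summit within 1 kb had medians of 0.16 and 0.02. NFATc2 was measured after 30 min and H3K4me3 after 2 h, and in different cells, with and without the transgene.

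Processed pseudogenes are numerous for this family, and reads that match several places are a concern. Within the NT promoter peaks, a median of 94.0% of 50-base sequences occurred only once in mm9. Only exact matches were counted, so copies that differ by a few bases were missed. The lowest share was 80.9%, at Rps2, and 13 of the 77 genes were under 90%. For H3K4me3, the sources used here name default mapping settings and do not say how reads with several matches were treated, so the tags of these 13 genes are less certain. The other genes were not shown to be free of such reads.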

How the data were processed

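Peak lists of 4 ChIP-seq experiments were used. Per the labels, reads were mapped to mm9 with Bowtie. Per the file headers, MACS 1.4.2 called peaks in each library against its own input with a p-value threshold of 1e-05. The deposited lists give for each peak a count of tags, which is not normalized, a score of −10 × log10 p, a fold enrichment, which is the ratio over the local input background, and a false discovery rate in percent.

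Genes came from GENCODE mouse release 1 (Ensembl 65) on NCBI mouse build 37. The members and lists were chosen with earlier results of these data known. All peaks within 1 kb of any annotated TSS were summed per gene and divided by the header total of tags. Ratios were centred on the median of all genes with a peak in both lists. With 1 library per condition, no test was made between conditions. A 95% interval of a ratio was taken from an exact binomial interval of the tags, for counting error only. Shares have Wilson intervals, which treat genes as independent draws and were not used as tests. Genes named in the text were subunits with known roles, the 4 highest and lowest ratios per comparison, the 3 extremes of length and level in NT, those nearest NFATc2 summits, those without a peak and those with other symbols. Rps2, Rps18, Rps24, Rpl4, Rpl23, Rpl27a, Rpl32 and the neighbouring genes were named after their values or sequences were seen. The marker Spi1 was not analysed here, and some genes that meet the rule are counted but not reported by name. Functions were tested on simulated data. Computation used scipy 1.17.1, pysam 0.24.0, pandas 2.3.3 and numpy 2.4.6 under Python 3.11.15.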

Additional observations from a re-analysis of the deposited data

How the results depend on the processing

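Of 137 recomputed values for 16 results, 115 kept their direction and size. A count was taken as kept if it was within 1.5-fold of the main count. A median was taken as kept if it lay within an interval of the main median over the genes, with no change of sign. Presence, level and length were kept in all 3 lists with windows of 500 bp or 2 kb, stricter peaks, coding starts, summits in the window and canonical names. The median change of 0.17 for curdlan over NT became 0.05 without centring and 0.08 per kilobase of peak. For curdlan+FK506 over NT, 0.22 became 0.05 and 0.12. For curdlan+FK506 over curdlan, 0.02 became -0.02 without centring and -0.01 with fold enrichment, both reversed, and 0.04 per kilobase. The number of genes past 1.5-fold was 17, 22 and 20 with fold enrichment for curdlan over NT, curdlan+FK506 over curdlan and curdlan+FK506 over NT, against 1, 2 and 1 with tags. All genes also passed this limit more often with fold enrichment than with tags, as given above for curdlan over NT. The 22 genes were 10 upward and 12 downward of the 77, against 13.7% and 14.2% of all genes. The 20 genes were 16 upward and 4 downward, against 13.5% and 13.7% of all genes. The number of genes past 1.5-fold was 0 in all 3 comparisons per kilobase. In the same order, the backgrounds upward and downward were 1.45% and 1.04%, 0.472% and 0.435%, and 1.31% and 0.750%. It was also 0 with tags summed over the span of the peaks of all lists, an alternative chosen after seeing the data. The backgrounds for these spans are given above. With a window of 2 kb the number was 1 for curdlan+FK506 over curdlan, against 0.274% upward and 1.09% downward of all genes. For curdlan+FK506 over NT it was 2, against 2.90% and 1.35%. Genes with an NFATc2 summit numbered 6 at 1 kb, 9 at 5 kb, 30 at 30 kb and 7 at a p-value of 1e-10 or less, against 16. The 7 genes at the stricter p-value were 8.86% of the 79, against 13.4% of all genes. The 30 genes at 30 kb were 38.0% of the 79, against 30.2% of all genes, so the order of the 2 shares differs from that at 20 kb. Genes with a promoter peak in NT were at 44.7% at 30 kb, above the ribosomal protein genes as at 20 kb. The cause was not tested where none is stated. No paired analysis was possible because each condition had 1 library. For the same reason no library could be left out. Depth limits small ratios, since the promoter peaks of Rpl22, the lowest, held 396 tags in NT and those of Rpl18, the highest, 2649.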
